A study of Mus musculus with 9 samples.

Results

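Ribosome biogenesis and nucleolar genes were followed in leukaemic and wild type mouse myeloid progenitors. The 41 genes were listed by name, and 40 of them could be read on the arrays, out of 18194 genes there. The remaining gene, Mrto4, shares its probe set with its pseudogenes and was not analysed here. Each gene was read on the probe set that carries its symbol alone and has the highest mean log2 signal over the 9 arrays. All 40 passed the filter on low signal, which requires at least 3 arrays above the 40th percentile of the array and left 12866 genes for testing.

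Sorted cells of 3 groups had been hybridised to Affymetrix arrays, 3 mice per group and 1 array per mouse by the labels. The K/L leukaemic mice carried bi-allelic Cebpa mutations, the Sox4 leukaemic mice overexpressed Sox4, and the wild type mice were C57/BL6; strain (C57/BL6), tissue (blood) and age (2 to 4 months) were recorded alike for every mouse. In all groups the sorted cells were lineage-negative, Sca-1-negative, Mac1 low or positive and c-Kit-positive, and the leukaemic samples were additionally labelled CD45.1-negative and CD45.2-positive. How Sox4 was overexpressed, which Cebpa mutations K/L stands for, and how the CD45.2-positive cells came to the mice are not stated by any source used. The study set each leukaemia against wild type cells, and the direct comparison of the leukaemias was made here as well, because both share the wild type arrays.

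Ribosomes are built in the nucleolus. RNA polymerase I transcribes a long precursor rRNA, small nucleolar ribonucleoproteins (snoRNPs) guide its 2′-O-methylation and pseudouridylation, and assembly factors cut and fold it with ribosomal proteins into a small and a large subunit. The Myc transcription factor is a well-known activator of these genes and binds the E-box sequence CACGTG, and nucleophosmin, an abundant nucleolar protein, is a frequent target of mutation in human acute myeloid leukaemia. In haematopoiesis, proliferating progenitors make many ribosomes, and output falls as granulocytes mature.

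The labels were checked on the arrays. Log2 signal of Sox4 lay between 10.52 and 10.87 in K/L cells, between 9.61 and 9.87 in Sox4 cells and between 3.81 and 3.97 in wild type cells. Kit, which encodes the sorted c-Kit receptor, lay between 9.10 and 9.36 on all arrays, whereas Itgam, which encodes Mac1, was dim, at 3.70 to 4.99 against a 40th percentile of 4.84 to 4.95. The array Sox4 leukaemic 3 carried signal for both Xist (11.63) and the Y-linked Kdm5d (9.01), so n counts arrays here and p-values measure the spread between arrays, which may be partly technical. Sox4 leukaemic 1 had Xist at 12.10 and Kdm5d at 4.14, and Sox4 leukaemic 2 had 4.68 and 9.91. On all K/L and wild type arrays Xist lay between 4.60 and 5.34 and Kdm5d between 9.60 and 10.86. These sex-linked signals thus set Sox4 leukaemic 1 and 3 apart from both other groups, and the part of sex in the results was not tested. The array wild type 3 stood apart from the other wild type arrays, with correlations of 0.979 and 0.977 over all tested genes against at least 0.991 for every other pair within a group, and it was the lowest of its group for 23 of the 40 members. The 3′ to 5′ signal ratio of Gapdh, a measure of RNA integrity, was 1.93 to 2.00 in K/L cells, 2.22 to 2.44 in Sox4 cells and 2.68 to 2.91 in wild type cells. The Gapdh ratio moved with the groups. The same ratio of actin overlapped, at 0.866 to 0.913 in K/L cells, 0.881 to 0.915 in Sox4 cells and 0.885 to 0.976 in wild type cells. The part of RNA integrity in the results was not tested.

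Both leukaemias carried higher signal of many of the ribosome biogenesis genes than wild type cells, and nearly none of them was lower. In K/L cells, 21 of 40 members were higher than in wild type cells and 1 was lower at an adjusted p under 0.05 (limma, Benjamini-Hochberg over all tested genes), while 28.7% of all tested genes were called higher and 21.6% lower. In Sox4 cells, 22 were higher and 1 was lower, against 26.6% and 21.1% of all tested genes. The median log2 difference of the members was 0.35 in K/L cells and 0.34 in Sox4 cells, against 0.05 and 0.03 over all tested genes. Without wild type 3, K/L cells had 22 members higher and 1 lower, and Sox4 cells 20 and 1; without Sox4 leukaemic 3 they were 21 and 0 in K/L cells, and 19 and 1 in Sox4 cells.

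Most of these differences were under 2-fold. In K/L cells, 7 members were called and at least 2-fold higher, where 9.33% of all tested genes were; in Sox4 cells 6 were, where 9.19% of all tested genes were. No member was called and at least 2-fold lower in either leukaemia, where 7.28% of all tested genes were in K/L cells and 6.30% in Sox4 cells. The 3 arrays of the leukaemia lay above all 3 wild type arrays for 25 members in K/L cells and 28 in Sox4 cells, against 32.8% and 31.0% of all tested genes, and below them for 3 and 2 members, against 25.2% and 25.1%. Averaged over the 40 members, log2 signal was 10.49, 10.53 and 10.48 on the K/L arrays, 10.52, 10.51 and 10.52 on the Sox4 arrays, and 10.07, 10.12 and 9.96 on the wild type arrays. The leukaemias thus overlapped each other in this average and both lay above wild type. These are bulk samples scaled per array, so a different share of cells of one kind and a different amount of RNA per cell cannot be told apart.

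**Figure D1:**
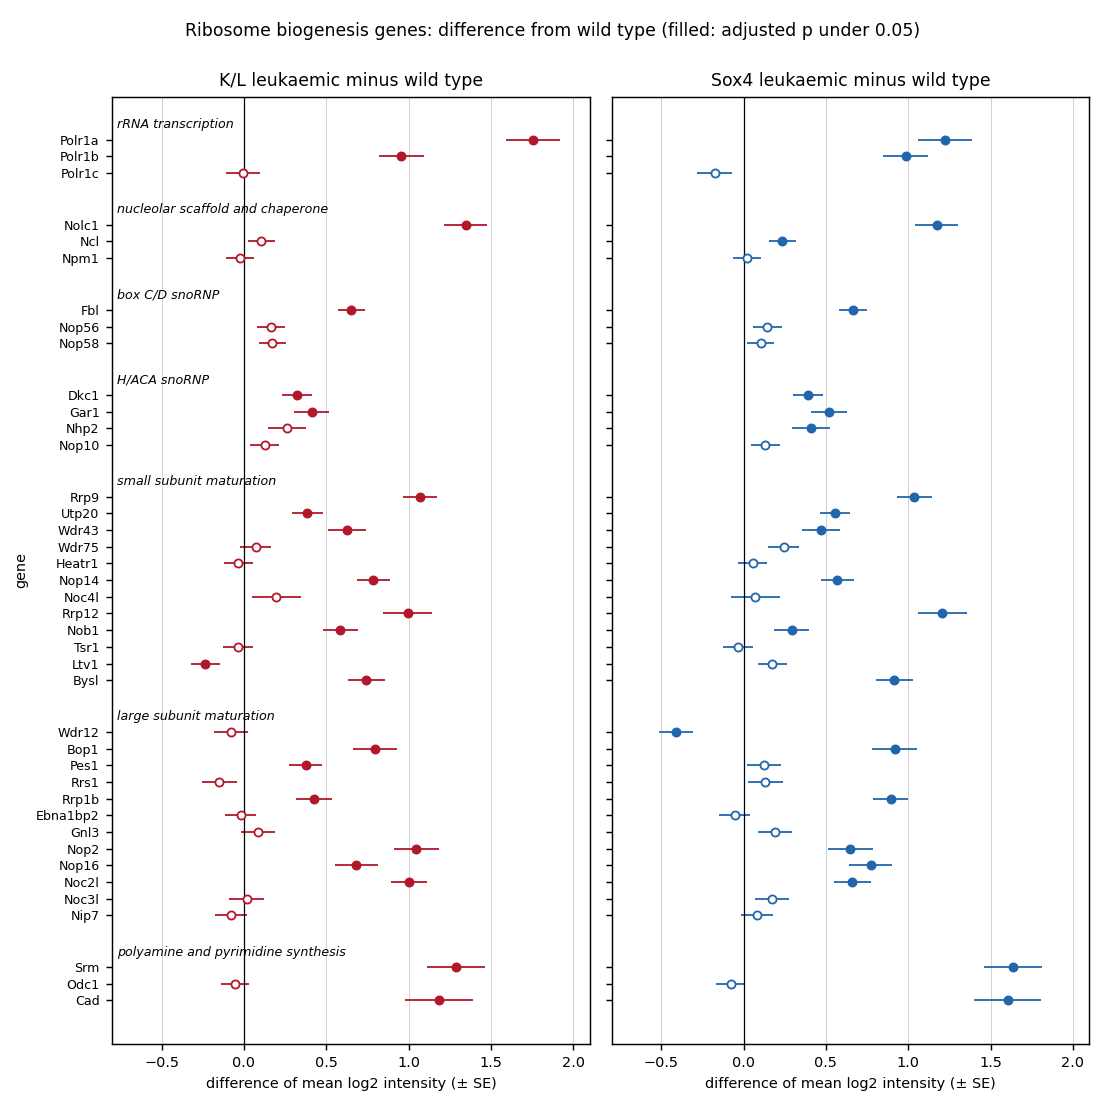
Log2 difference from wild type for each of the 40 members, grouped by role, in K/L and in Sox4 leukaemic cells (n = 3 arrays per group); bars are standard errors from the limma fit and filled points passed an adjusted p of 0.05. Polr1a reaches 1.75 in K/L cells and Srm 1.63 in Sox4 cells, and the lowest points are Ltv1 (-0.24 in K/L cells) and Wdr12 (-0.41 in Sox4 cells).

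The promoters of the members were read because Myc binds the E-box. RefSeq promoter windows of build GRCm38.p6, from 250 bases before to 50 after the annotated start, were at hand for 35 of the 41 listed genes. The motif CACGTG reads the same on both strands, and genes with a match in any of their windows were counted. These were 6 of the 35 listed genes (17.1%), 11.3% of the 10431 tested genes with a window and 8.09% of all 27025 genes with a window. The 6 matches are shown first, with the E-box in capitals, followed by the 60 bases before the start of Polr1a and Nolc1, the members with the largest differences in K/L cells, which held no match.
Nop2: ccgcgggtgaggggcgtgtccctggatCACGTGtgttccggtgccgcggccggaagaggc
Ltv1: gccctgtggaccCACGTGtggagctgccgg
Utp20: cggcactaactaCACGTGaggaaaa
Pes1: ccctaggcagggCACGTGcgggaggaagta
Tsr1: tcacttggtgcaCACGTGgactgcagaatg
Wdr43: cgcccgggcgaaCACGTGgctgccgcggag
Polr1a: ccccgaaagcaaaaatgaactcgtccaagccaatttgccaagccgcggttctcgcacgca
Nolc1: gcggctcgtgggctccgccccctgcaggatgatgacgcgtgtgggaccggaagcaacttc
In Nop2 (chr6:125131796-125131855, plus strand) the motif begins 60 bases before the start. In the other 5 it begins after the start, by 28 bases in Ltv1 (chr10:13193092-13193121, minus strand), 37 in Utp20 (chr10:88826765-88826789, minus strand), 2 in Pes1 (chr11:3963965-3963994, plus strand), 24 in Tsr1 (chr11:74898092-74898121, plus strand) and 17 in Wdr43 (chr17:71616220-71616249, plus strand). The stretches of Polr1a (chr6:71908993-71909052) and Nolc1 (chr19:46075787-46075846) are on the plus strand. Among the 6 members with the motif, 4 were called higher in K/L cells and 3 in Sox4 cells than in wild type cells, and among the 28 tested members with a window and no motif, 13 and 15 were. A match describes these letters and is not a measured binding site.

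RNA polymerase I makes the precursor rRNA, and its large subunits held the largest difference among the members in K/L cells. Polr1a, the largest and catalytic subunit, had log2 signals of 10.58, 10.46 and 10.55 in K/L cells, 9.99, 10.03 and 9.97 in Sox4 cells, and 9.04, 8.95 and 8.34 in wild type cells. The groups did not overlap, with K/L cells highest and wild type cells lowest. Polr1a was 3.37-fold higher in K/L cells than in wild type cells (log2 difference 1.75 ± 0.16 SE, adjusted p = 1.9e-05, limma) and 2.34-fold higher in Sox4 cells (1.22 ± 0.16, adjusted p = 0.000204). Without wild type 3 the folds were 2.9 and 2.01. Its other detected probe sets differed from wild type in the same direction, by 2.13 and 1.26 in K/L cells and by 1.47 and 0.66 in Sox4 cells. Polr1b, the other large subunit at the catalytic centre, was 0.95 higher in K/L cells (adjusted p = 0.000303) and 0.99 higher in Sox4 cells (adjusted p = 0.000259). Polr1c, which RNA polymerases I and III share, did not pass the test in either leukaemia (log2 differences -0.00 and -0.18).

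Among the nucleolar scaffold and chaperone proteins, 1 of 3 rose in K/L cells and 2 of 3 in Sox4 cells. Nolc1, a phosphoprotein that chaperones snoRNPs, had log2 signals of 11.38, 11.51 and 11.36 in K/L cells, 11.20, 11.40 and 11.14 in Sox4 cells, and 10.13, 10.27 and 9.82 in wild type cells. Every leukaemic array lay above every wild type array. Nolc1 was 2.54-fold higher in K/L cells (log2 difference 1.35 ± 0.13 SE, adjusted p = 2.39e-05) and 2.25-fold higher in Sox4 cells (adjusted p = 6.15e-05). Of its other probe sets, one differed by 1.37 in each leukaemia and one by 0.22 in K/L cells and 0.54 in Sox4 cells. Ncl (nucleolin), which acts in rRNA transcription and processing, was 0.24 ± 0.08 higher in Sox4 cells (adjusted p = 0.0414), a call lost under 11 of 19 alternative settings. It differed by 0.11 in K/L cells (adjusted p = 0.327). Its other probe sets differed by 0.35, 0.20, 0.82 and 0.37 in Sox4 cells and by 0.24, 0.04, 0.19 and -0.02 in K/L cells. Npm1 (nucleophosmin), the member with the highest mean signal, had 13.33, 13.25 and 13.22 in K/L cells, 13.33, 13.29 and 13.30 in Sox4 cells, and 13.34, 13.31 and 13.21 in wild type cells. The 3 groups overlapped throughout, with log2 differences of -0.02 and 0.02 from wild type.

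Of the box C/D snoRNP core proteins, which carry out 2′-O-methylation, only Fbl passed the test. Fbl (fibrillarin), the methyltransferase, was 1.57-fold higher in K/L cells (adjusted p = 0.000136) and 1.59-fold higher in Sox4 cells (adjusted p = 0.000123), with no overlap with wild type. The structural partners Nop56 and Nop58 also lay above wild type on every leukaemic array, but by 0.16 and 0.17 in K/L cells and by 0.14 and 0.10 in Sox4 cells, and neither passed (lowest adjusted p = 0.108).

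The H/ACA snoRNP proteins, which form pseudouridine and also bind telomerase RNA, had positive differences for all 4 members in both leukaemias, of which 2 passed in K/L cells and 3 in Sox4 cells. Dkc1 (dyskerin), the pseudouridine synthase, was 0.32 ± 0.09 higher in K/L cells (adjusted p = 0.0136) and 0.39 higher in Sox4 cells (adjusted p = 0.00516). Its other probe sets differed by -0.05 and 0.46 in K/L cells and by 0.28 and 0.63 in Sox4 cells. Gar1, a core subunit, was 0.41 ± 0.11 higher in K/L cells (adjusted p = 0.00964) and 0.52 higher in Sox4 cells (adjusted p = 0.0029). Nhp2, which binds the guide RNA, was 0.41 ± 0.12 higher in Sox4 cells (adjusted p = 0.0158) and differed by 0.26 in K/L cells (adjusted p = 0.088). Nop10, the smallest subunit, differed by 0.13 in each and did not pass.

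**Figure D2:**
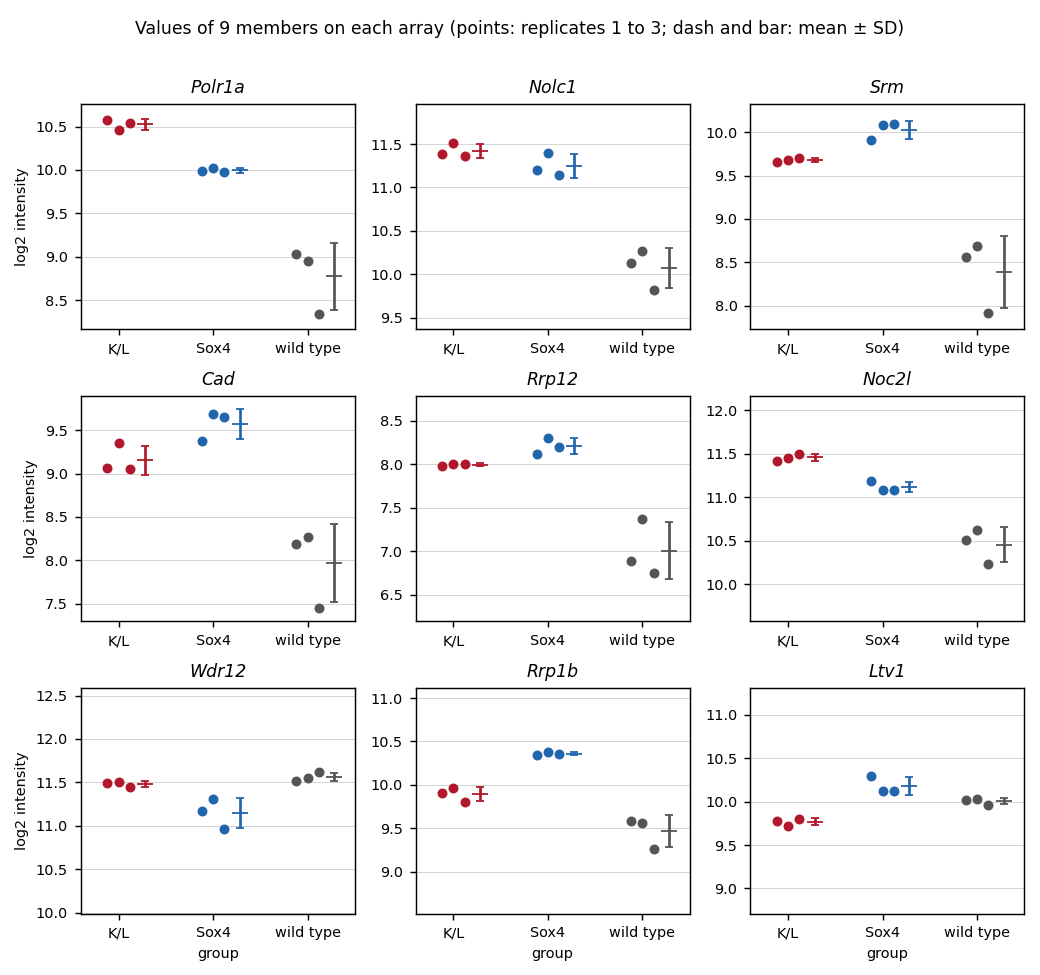
Log2 intensity on each array for the 9 members among the 4 largest called rises or falls of any comparison, with K/L, Sox4 and wild type arrays from left to right in each panel; points are arrays, and the dash with its bar is the mean ± SD (n = 3). For Polr1a, Nolc1, Srm, Cad, Rrp12, Noc2l and Rrp1b all 6 leukaemic arrays lie above the wild type arrays, the Wdr12 arrays of Sox4 cells lie lowest, and the Ltv1 arrays of K/L cells lie lowest.

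Small subunit maturation held the most calls by number, with 12 tested members, as many as large subunit maturation. Calls above wild type were 7 (58.3%) for K/L and 7 (58.3%) for Sox4 cells, and calls below it 1 and 0. This share was under the 66.7% of rRNA transcription and of polyamine and pyrimidine synthesis (3 members each) in both leukaemias. In Sox4 cells it was also under H/ACA snoRNP (75%) and nucleolar scaffold and chaperone (66.7%). Over all tested genes, 28.7% were called above wild type for K/L and 26.6% for Sox4 cells. Rrp12, which helps export the small subunit precursor in yeast, had log2 signals of 7.98, 8.0 and 8.01 in K/L cells, 8.12, 8.30 and 8.20 in Sox4 cells, and 6.89, 7.37 and 6.75 in wild type cells. The leukaemic arrays all lay above the wild type arrays, by 1.99-fold on average in K/L cells (adjusted p = 0.000399) and by 2.31-fold in Sox4 cells (adjusted p = 0.000119). Rrp9, a protein of the snoRNP that directs the early cuts, was 2.1-fold higher in K/L cells (log2 difference 1.07 ± 0.11, adjusted p = 2.82e-05) and 2.05-fold higher in Sox4 cells (adjusted p = 3.7e-05).

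Early small subunit factors gave mixed calls. Nop14, a nucleolar assembly factor, was 0.79 higher in K/L cells (adjusted p = 0.000148) and 0.57 higher in Sox4 cells (adjusted p = 0.00117). Noc4l, whose yeast counterpart binds Nop14, did not pass in either (0.19 and 0.07). Another of its probe sets differed by 0.42 in each leukaemia, and the rest by 0.20 and 0.13 in K/L cells and 0.14 and 0.18 in Sox4 cells. With cross-hybridising probe sets taken last, Noc4l passed in both (adjusted p = 0.021 and 0.022). Wdr43 was 0.63 higher in K/L cells (adjusted p = 0.00133) and 0.47 higher in Sox4 cells (adjusted p = 0.00684). Wdr75 and Heatr1, which like Wdr43 belong to the complex that first meets the precursor rRNA, differed by 0.07 and -0.04 in K/L cells and by 0.25 and 0.06 in Sox4 cells, and neither passed. A second Heatr1 probe set differed by -1.76 in K/L cells and -0.77 in Sox4 cells, and a further one by -0.29 and -0.27, so its 3 probe sets are all negative in K/L cells and disagree in sign in Sox4 cells. Utp20, a large scaffold protein, was 0.39 higher in K/L cells (adjusted p = 0.00692) and 0.56 higher in Sox4 cells (adjusted p = 0.000893).

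Among the late small subunit factors, Bysl (yeast Enp1) was 0.74 ± 0.11 higher in K/L cells (adjusted p = 0.000457) and 0.92 higher in Sox4 cells (adjusted p = 0.000125). The second Bysl probe set differed by only 0.14 in K/L cells and by 0.50 in Sox4 cells. Nob1, the endonuclease that makes the mature end of the small subunit rRNA, was 0.59 ± 0.10 higher in K/L cells (adjusted p = 0.00121) and 0.29 higher in Sox4 cells (adjusted p = 0.043), where the call was lost under 9 of 19 alternative settings. Tsr1 differed by -0.04 and -0.03 and did not pass, whereas its other probe set differed by -0.31 in K/L cells and -0.34 in Sox4 cells. Ltv1, which must leave the precursor before it matures, had log2 signals of 9.78, 9.72 and 9.80 in K/L cells, 10.30, 10.12 and 10.12 in Sox4 cells, and 10.02, 10.03 and 9.96 in wild type cells. K/L arrays lay below and Sox4 arrays above the wild type arrays. The difference from wild type was -0.24 ± 0.09 in K/L cells (adjusted p = 0.0499), which was lost under 13 of 19 alternative settings, and 0.18 in Sox4 cells (adjusted p = 0.133).

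Among the large subunit factors, 6 of 12 were higher in K/L cells, and 5 were higher and 1 lower in Sox4 cells. Noc2l, part of a complex that carries the precursor out of the nucleolus, had log2 signals of 11.42, 11.45 and 11.50 in K/L cells, 11.18, 11.08 and 11.08 in Sox4 cells, and 10.51, 10.62 and 10.23 in wild type cells. It was 2-fold higher in K/L cells (log2 difference 1.00 ± 0.11, adjusted p = 5.5e-05) and 1.58-fold higher in Sox4 cells (adjusted p = 0.000824), although its second probe set differed by -0.24 and 0.09. Its yeast partner's counterpart Noc3l did not pass in either (0.02 and 0.17). Nop2, an rRNA cytosine methyltransferase, was 2.06-fold higher in K/L cells (log2 difference 1.05 ± 0.14, adjusted p = 0.000162) and 1.57-fold higher in Sox4 cells (adjusted p = 0.00319). Nop16, a nucleolar protein induced by Myc, was 0.68 higher in K/L cells (adjusted p = 0.00181) and 0.77 higher in Sox4 cells (adjusted p = 0.000904). The second Nop16 probe set differed by only 0.10 in K/L cells and by 0.45 in Sox4 cells.

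The PeBoW complex, formed by Pes1, Bop1 and Wdr12 and needed for large subunit rRNA processing, gave mixed calls. Bop1 was 0.80 ± 0.14 higher in K/L cells (adjusted p = 0.000867) and 0.92 higher in Sox4 cells (adjusted p = 0.000377). Pes1 was 0.37 ± 0.10 higher in K/L cells (adjusted p = 0.0118) and differed by 0.13 in Sox4 cells (adjusted p = 0.341), and another of its probe sets differed by -0.45 and -0.16. Wdr12 had log2 signals of 11.49, 11.50 and 11.44 in K/L cells, 11.17, 11.31 and 10.96 in Sox4 cells, and 11.52, 11.54 and 11.61 in wild type cells. All leukaemic arrays lay below all wild type arrays, but only the Sox4 difference passed, at -0.41 ± 0.10 (0.751-fold, adjusted p = 0.00852), against -0.08 in K/L cells (adjusted p = 0.555). Its second detected probe set differed by -0.74 in K/L cells and -0.93 in Sox4 cells, and on the mean over all probe sets the K/L difference passed as well (-0.28, adjusted p = 0.0111).

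Rrp1b, a nucleolar protein of the large subunit precursor, had log2 signals of 9.91, 9.96 and 9.81 in K/L cells, 10.35, 10.38 and 10.35 in Sox4 cells, and 9.59, 9.56 and 9.26 in wild type cells. The groups did not overlap, and here the Sox4 arrays were highest. Rrp1b was 1.34-fold higher in K/L cells (adjusted p = 0.00849) and 1.86-fold higher in Sox4 cells (adjusted p = 0.000104). Rrs1, Ebna1bp2, Gnl3 (nucleostemin) and Nip7, all factors of large subunit assembly or nucleolar integrity, did not pass in either leukaemia. Their log2 differences ran between -0.15 and 0.09 in K/L cells and between -0.05 and 0.19 in Sox4 cells. Another Rrs1 probe set differed by 0.05 in K/L cells and 0.40 in Sox4 cells. Rrs1 passed in Sox4 cells on the mean over all probe sets (0.27, adjusted p = 0.035). It also passed there with cross-hybridising probe sets taken last (adjusted p = 0.00839). Another Nip7 probe set differed by 0.33 in K/L cells and -0.47 in Sox4 cells.

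The enzymes of polyamine and pyrimidine synthesis, which are counted with ribosome biogenesis as growth genes, held the largest differences of the Sox4 cells. Srm, spermidine synthase, had log2 signals of 9.65, 9.68 and 9.71 in K/L cells, 9.91, 10.09 and 10.09 in Sox4 cells, and 8.56, 8.69 and 7.92 in wild type cells. It was 2.44-fold higher in K/L cells (log2 difference 1.29 ± 0.18, adjusted p = 0.000228) and 3.1-fold higher in Sox4 cells (1.63 ± 0.18, adjusted p = 5.2e-05), or 2.07-fold and 2.64-fold without wild type 3. Cad, which catalyses the opening steps of pyrimidine synthesis, had 9.06, 9.35 and 9.05 in K/L cells, 9.38, 9.69 and 9.65 in Sox4 cells, and 8.19, 8.27 and 7.45 in wild type cells. Neither gene's leukaemic arrays overlapped the wild type arrays. Cad was 2.27-fold higher in K/L cells (adjusted p = 0.000992) and 3.04-fold higher in Sox4 cells (adjusted p = 0.000154), or 1.9-fold and 2.54-fold without wild type 3. Odc1, ornithine decarboxylase, which supplies the polyamine precursor, did not pass in either leukaemia (-0.05 and -0.08). Its other probe sets differed by -0.23 and -0.18 in K/L cells and by -0.255 and -0.33 in Sox4 cells. With cross-hybridising probe sets taken last, Odc1 was called lower in Sox4 cells (-0.255, adjusted p = 0.0419).

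The direct comparison of K/L with Sox4 leukaemic cells called few members. Of 40, 3 were higher and 2 lower in K/L cells at an adjusted p under 0.05, where 14.7% of all tested genes were higher and 14.1% lower. The median log2 difference of the members was -0.04, against 0.03 over all tested genes. The K/L arrays lay above all Sox4 arrays for 9 members and below them for 11, against 27.1% and 24.0% of all tested genes. For the 35 members that did not pass, every 95% interval of the difference lay between -0.88 and 0.70, and for 29 of them within 0.5 of 0. Without wild type 3, which enters this comparison only through the shared spread, 6 members were higher and 5 lower, with Srm (-0.35, adjusted p = 0.0106) and Cad (-0.42, adjusted p = 0.0213) among those lower in K/L cells.

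The members higher in K/L cells were Polr1a, by 1.44-fold (log2 difference 0.53, adjusted p = 0.0363), Noc2l, by 1.27-fold (0.34, adjusted p = 0.043), and Wdr12, by 1.26-fold (0.33, adjusted p = 0.0377). None of these calls held when any 1 K/L array was left out (adjusted p between 0.0673 and 0.1235). On the mean over all probe sets the Noc2l difference was 0.01 (adjusted p = 0.963), its second probe set alone giving -0.32, and that of Wdr12 was 0.17 (adjusted p = 0.123). The members lower in K/L cells were Rrp1b, at 0.723-fold (-0.47, adjusted p = 0.00932), and Ltv1, at 0.752-fold (-0.41, adjusted p = 0.00668), and both held under all 19 alternative settings. Polr1a and Nop2 lie on chromosome 6, where 263 of 644 tested genes (40.8%) were called higher in K/L than in Sox4 cells and the median log2 difference was 0.29. The part of this chromosome-wide difference in the values of these genes was not tested.

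**Figure D3:**
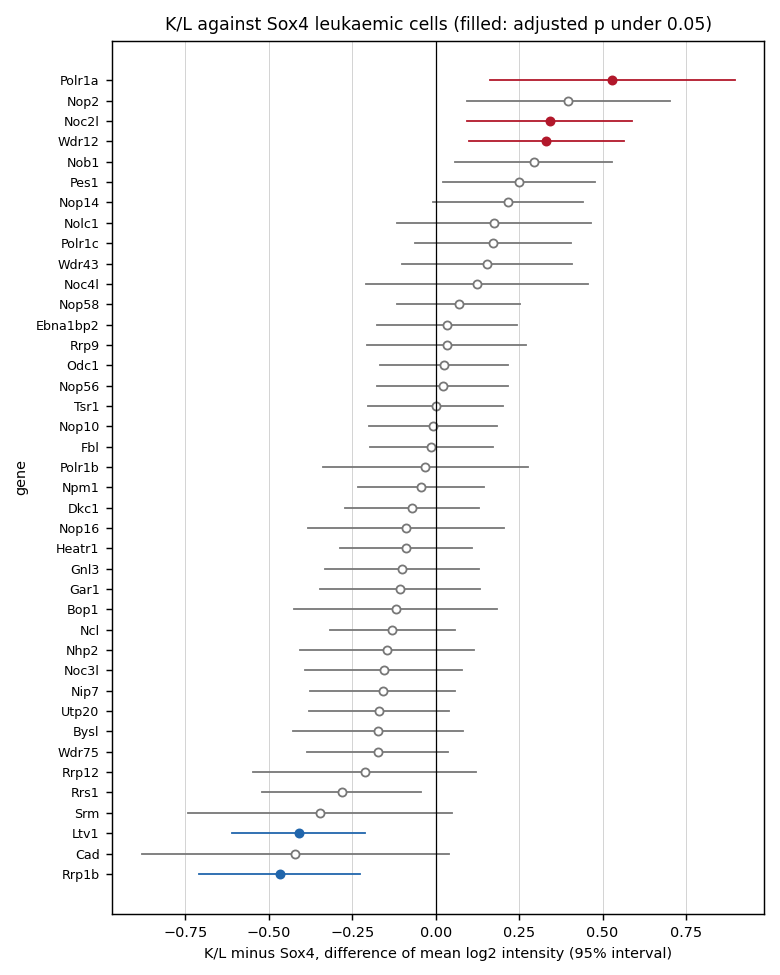
Log2 difference between K/L and Sox4 leukaemic cells for each member, with 95% intervals from the limma fit (n = 3 arrays per group). The 5 called members are Polr1a, Noc2l and Wdr12 above 0 and Ltv1 and Rrp1b below 0; the other intervals lie between -0.88 and 0.70.

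Other genes of the same pathway, 108 in all, shifted in the same direction with a smaller median. In K/L cells 45 of them were higher (41.7%) and 11 lower (10.2%), with a median log2 difference of 0.19, and in Sox4 cells 41 were higher (38.0%) and 11 lower (10.2%), with a median of 0.18. By list, 18 of 37 other small subunit factors were higher in K/L cells and 15 in Sox4 cells. For the 38 other large subunit factors these counts were 15 and 13. The 12 other RNA polymerase I genes gave mixed calls. In K/L cells 3 were called above wild type and 1 below it (median log2 difference -0.03). In Sox4 cells 5 were called above it and 4 below it (median 0.20). Of 21 other snoRNP and precursor rRNA processing genes, K/L cells had 9 above wild type against 4 below. For Sox4 cells it was 8 against 2. Naf1, which assembles H/ACA snoRNPs, was 1.79 ± 0.13 higher in K/L cells (adjusted p = 2.87e-06) and 1.95 higher in Sox4 cells (adjusted p = 1.77e-06). Nat10, an rRNA cytidine acetyltransferase, was 1.20 ± 0.10 higher in K/L cells (adjusted p = 8.91e-06) and 1.28 higher in Sox4 cells (adjusted p = 6.21e-06). Ubtf, the architectural factor of rRNA gene transcription, was 1.41 ± 0.17 higher in K/L cells and 1.22 higher in Sox4 cells, while Taf1d, a subunit of the promoter-selectivity factor for RNA polymerase I, fell by 0.70 in K/L cells and by 0.83 in Sox4 cells. Tcof1 (treacle), chosen after its values were seen, had 9.69, 9.80 and 9.79 in K/L cells, 9.86, 10.07 and 10.06 in Sox4 cells, and 7.84, 8.10 and 6.63 in wild type cells.

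The genes of the ribosome's own proteins were mostly not called. Among 42 tested cytosolic ribosomal protein genes, K/L cells had 3 higher and 3 lower, and Sox4 cells 4 higher and 3 lower, with median log2 differences of 0.07 and 0.02. Their mean log2 signal lay between 12.17 and 12.20 in K/L cells, between 12.16 and 12.18 in Sox4 cells and between 12.12 and 12.15 in wild type cells. Among 75 mitochondrial ribosomal protein genes, K/L cells had 21 higher and 10 lower, and Sox4 cells 27 higher and 8 lower.

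Myc itself was 1.06 ± 0.12 higher in K/L cells (adjusted p = 6.96e-05) and 0.91 higher in Sox4 cells (adjusted p = 0.000192), and the leukaemias did not differ past the threshold (0.15, adjusted p = 0.417). In the list of Myc network genes, K/L cells had 5 of 11 higher and 0 lower, and Sox4 cells 4 higher and 1 lower. Mitosis genes differed between the leukaemias: K/L cells had 4 of 19 above and 5 below wild type, Sox4 cells had 10 above and 0 below, and in the direct comparison 14 of 19 were lower in K/L cells. DNA replication genes were higher for 7 of 20 and lower for 2 in K/L cells, and higher for 9 and lower for 0 in Sox4 cells. Beside these counts, 28.7% of all tested genes were higher and 21.6% lower in K/L than in wild type cells. In Sox4 cells the shares were 26.6% and 21.1%. Between the leukaemias, 14.7% were higher and 14.1% lower in K/L cells.

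**Figure D4:**
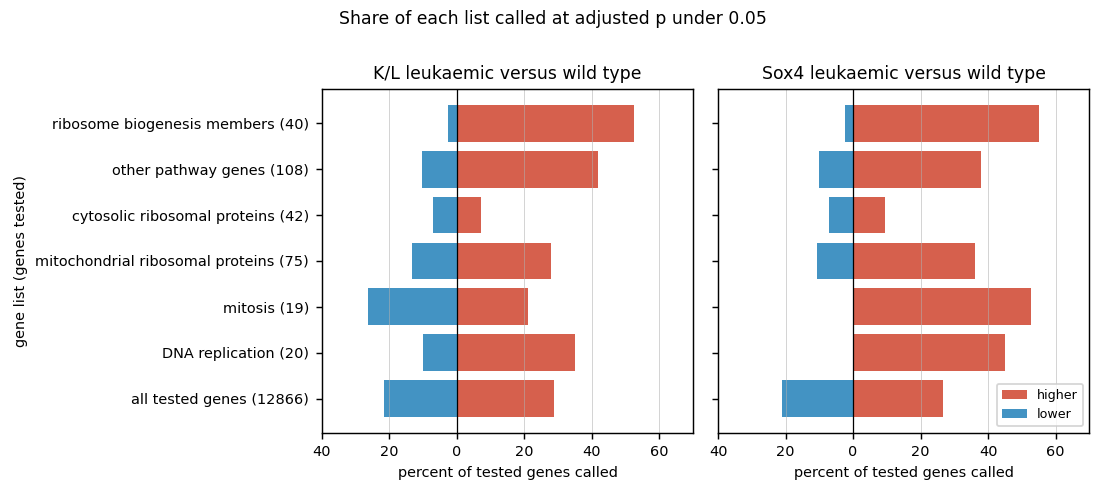
Percentage of tested genes called higher (right of 0) and lower (left of 0) than wild type at an adjusted p under 0.05, for K/L and Sox4 leukaemic cells, in the members, the other pathway genes, the ribosomal protein, mitosis and DNA replication lists and all tested genes. The members reach 52.5% higher in K/L cells and 55.0% in Sox4 cells, against 7.14% and 9.52% for the cytosolic ribosomal proteins.

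Markers of other blood cells also moved with the groups. Summed intensity over 9 neutrophil marker genes was 262 to 402 in K/L cells, 4079 to 4314 in Sox4 cells and 15238 to 20696 in wild type cells; 5 of the 9 were lower in K/L cells, and 6 were higher and 3 lower in Sox4 cells. The sum over 10 monocyte markers was 7458 to 8746 in K/L cells, 12328 to 13423 in Sox4 cells and 9367 to 9968 in wild type cells, and over 5 mast cell and basophil markers it was 5839 to 6437 in K/L cells, 2080 to 2760 in Sox4 cells and 1164 to 1762 in wild type cells. Erythroid markers on the arrays summed to 330 to 383 in K/L cells, 773 to 829 in Sox4 cells and 192 to 225 in wild type cells, and megakaryocyte markers to 2084 to 2504 in K/L cells, 2071 to 3066 in Sox4 cells and 2122 to 2379 in wild type cells. Of 6 tested megakaryocyte markers, 2 were lower in K/L cells, and 5 were higher and 1 lower in Sox4 cells; of 6 tested erythroid markers, 1 was higher in K/L cells and 5 were higher in Sox4 cells. Of the 10 monocyte markers, K/L cells had 4 higher and 2 lower, and Sox4 cells 7 higher and 2 lower; of 4 tested mast cell and basophil markers, K/L cells had 3 higher and 1 lower, and Sox4 cells 2 higher. B cell markers summed to 398 to 432 in K/L cells, 434 to 520 in Sox4 cells and 203 to 233 in wild type cells. Of 3 tested B cell markers, 2 were higher in K/L cells, and 1 was higher and 1 lower in Sox4 cells. T and NK cell markers stayed at or under 215 in sum on every array. No marker of any list lay at the lowest deposited value throughout a group. Many were dim, and in K/L, Sox4 and wild type cells 5, 2 and 6 of 8 erythroid markers had means under the 40th percentile. For B cell markers it was 4, 5 and 3 of 6. The part of these cells in the differences of the ribosome biogenesis genes was not tested.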

How the data were processed

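Total RNA of sorted cells on 9 arrays (3 per group) was read from the deposited value table. The authors deposited linear intensities per probe set, and RMA, which normalises arrays to one another, is named per the submitters' processing notes; no source used here gives its version or settings. Values end at a floor of 8 (log2 of 3), and array medians lay between 5.43 and 5.55, so levels are relative within an array and a common shift of all genes would not show. The log2 of the deposited intensities was taken with no further scaling. Of 45101 probe sets, 34958 carry 1 gene symbol in the platform annotation, 932 several and 9211 none; only the first kind was named.

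One limma fit (3.58.1, R 4.3.3) of the 9 arrays with 3 groups gave moderated tests (6 residual and 3.64 prior degrees of freedom), adjusted by Benjamini-Hochberg over 12866 genes. An exact permutation test of 3 against 3 arrays cannot go below p = 0.1. The members, lists and roles were chosen with earlier results of these data known, so counts are descriptions, and no set test was run. Values on every array are given for the 4 largest called rises and falls per comparison and the member with the highest mean; of the other lists, Myc and at most 3 genes per list with the smallest p are eligible. Alternatives were scaling, filter, offset, probe set choice, fit settings, the replicate number as a block and leaving out each array. The number of arrays limits the precision.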

Additional observations from a re-analysis of the deposited data

Results flagged for a closer look

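For 5 members the difference between K/L and Sox4 leukaemic cells itself passed the test (limma, 3 arrays per group). Polr1a (log2 difference 0.53, adjusted p = 0.0363), Noc2l (0.34, adjusted p = 0.043) and Wdr12 (0.33, adjusted p = 0.0377) were higher in K/L cells. Rrp1b (-0.47, adjusted p = 0.00932) and Ltv1 (-0.41, adjusted p = 0.00668) were lower in K/L cells. All 3 K/L arrays lay on the same side of all 3 Sox4 arrays for each of the 5. Over all tested genes they lay above for 27.1% and below for 24.0%. The 5 were picked by the test on these same arrays, so the separation adds no support. The calls of Polr1a, Noc2l and Wdr12 were lost when any 1 K/L array was left out.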

How the results depend on the processing

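Across the 19 alternatives, 20 to 24 members were higher in K/L cells than in wild type cells and 19 to 24 in Sox4 cells. Of the members called in the main setting, 19 of 22 kept their call in K/L cells and 20 of 23 in Sox4 cells under every alternative; the exceptions were Dkc1, Ltv1 and Pes1 in K/L cells and Ncl, Nhp2 and Nob1 in Sox4 cells. Members lower in K/L cells numbered 0 with median centring, quantile scaling, cross-hybridising probe sets taken last, only the compared groups fitted or the replicate block, 4 on the mean over all probe sets, and 0 to 1 when 1 array was left out. Members lower in Sox4 cells numbered 2 on the mean over all probe sets and 2 with cross-hybridising probe sets last. Between K/L and Sox4 cells, members higher numbered 7 with median centring, 5 with the stricter filter, 6 with trend and robust settings, 5 with only the compared groups and 0 to 6 when 1 array was left out; members lower numbered 5 with the mean of all probe sets, 4 with trend and robust settings, 5 with only the compared groups and 2 to 5 when 1 array was left out. With the mean of all probe sets the sign turned for Wdr75 (-0.38) and Pes1 (-0.04) in K/L cells and Heatr1 (-0.33) in Sox4 cells against wild type, and for Nip7 (0.32) between the leukaemias. Among members called in neither setting, it also turned for Nip7 (0.13) in K/L cells, for Wdr75 (-0.27), Nip7 (-0.19) and Pes1 (-0.02) in Sox4 cells, and for Nolc1 (-0.05) and Pes1 (-0.02) between the leukaemias, while 5 smaller turns stayed within the spread between arrays. Of all genes called between K/L and Sox4 cells, 51.1% were higher, and 63.4% with median centring. Deviations of same-numbered arrays from their group means correlated at -0.022 to 0.0777. With 3 arrays per group this cannot decide whether the numbers mark a pairing, and the labels do not say. With the replicate block K/L cells had 21 members higher and 0 lower, Sox4 cells 21 and 1, with 2 and 2 between the leukaemias. The cause of these changes was not tested. Arrays per group, 3, limit what can be detected.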

Other observations

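Of the 108 other pathway genes, 12 were higher (11.1%) and 8 lower (7.41%) in K/L than in Sox4 cells at an adjusted p under 0.05. Over all tested genes, 14.7% were higher and 14.1% lower. Of the called pathway genes, 2 are given here. Polr1g, a subunit of RNA polymerase I, was 0.40 above wild type in K/L cells (adjusted p = 0.0197) and 1.29 above it in Sox4 cells, and the direct difference was -0.89 (adjusted p = 0.000449). Ddx27, an RNA helicase of large subunit maturation, was 1.33 ± 0.13 above wild type in K/L cells and 0.63 above it in Sox4 cells, and the direct difference was 0.70 (adjusted p = 0.00257). Both lay among the genes with the smallest p against wild type in their lists.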
